A study of Mus musculus with 38 samples.

Results

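B1 elements are the short interspersed elements (SINEs) of the mouse genome that carry the family name Alu in the transposable element (TE) annotation, and their response to loss of Trim28 was followed in 5 bulk RNA-seq experiments on mouse neural cells. They were taken as all TE subfamilies of the family Alu, which gave 16 of 1153 subfamilies, namely B1_Mm, B1_Mus1, B1_Mus2, B1_Mur1, B1_Mur2, B1_Mur3, B1_Mur4, B1F, B1F1, B1F2, PB1, PB1D7, PB1D9, PB1D10, PB1D11 and FAM. Their individual copies numbered 574557, and 535501 remained of 3494634 TE copies in all after 39056 copies on chromosomes X and Y were left out. Of these copies, 223006 had at least 1 uniquely mapped read in the 32 bulk libraries.

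In the first experiment, neural progenitor cells (NPCs) from the forebrain of Rosa26-Cas9 knock-in mouse embryos received a lentivirus with a gRNA to exon 3, 4 or 13 of Trim28 (6 Trim28-KO libraries) or to lacZ (2 controls), and RFP+ cells were sorted after 10 days. For the next pair of experiments, neuronal nuclei were sorted 2 months after adult mice received AAV5 vectors with the same gRNAs and a nuclear RFP reporter. Cas9-GFP mice express Cas9 in all cells, and there the reporter was under the Synapsin promoter. Stop-Cas9-GFP mice were co-injected with Synapsin-Cre, so that Cas9 and a Cre-inducible reporter are switched on in neurons. Each of these lines gave 4 Trim28-KO libraries (gRNAs g3, g4, g13 and all together) and 1 lacZ control. In the fourth, adult Trim28 floxed mice were co-injected with AAV vectors for Cre or nuclear GFP, both driven by the Synapsin promoter. GFP+ nuclei were sorted 2 months later, giving 4 libraries labelled KO and 4 labelled control. The study used Trim28-flox +/- and +/+ mice in that experiment. The labels do not say which genotype or vectors each library had, so vector and genotype cannot be told apart. In the fifth, cortex of 3-month-old mice was sequenced as tissue. In 3 KO animals (Emx1-Cre +/-, Trim28-fl +/+) both Trim28 alleles had been excised in the dorsal forebrain lineage by Emx1-Cre. Per the methods, 1 allele had been excised in the 3 controls (Emx1-Cre +/-, Trim28-fl+/-), which makes them heterozygous deletions. A figure legend of the study instead calls the controls of the cortex TE comparison Cre-negative. The sires of these matings also carried gtRosa(+/-). Cells outside the dorsal forebrain lineage kept Trim28 in both groups. The methods describe the NPC groups as biological triplicates, with 2 libraries per gRNA and 2 controls used here, and the labels do not say whether these came from separate cell derivations, so their p-values may measure technical spread.

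B1 elements descend from 7SL RNA, the RNA of the signal recognition particle, and are copied into new places by the enzymes of LINE-1 elements. An active copy is transcribed by RNA polymerase III from an internal promoter made of an A box and a B box, whereas most B1 sequence found in poly-A RNA is carried within introns or untranslated regions of longer RNA polymerase II transcripts. Trim28 is a co-repressor that is brought to TEs by KRAB zinc finger proteins and recruits the machinery for H3K9me3, and it is best known for silencing endogenous retroviruses (LTR elements).

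Of the 23 copies called in Emx1-Cre/Trim28-KO cortex, 12 carried both boxes, so sequences of such copies are shown first. Shown are 4 of the 5 copies of largest change, all with 0 counts in the 3 controls, from RefSeq GRCm38.p6 in 5′ to 3′ direction of the element, with matches to the A box (TGGCNNANG) and the B box (GTTCGANNC) in capitals.
B1_Mus2_dup64647, chr17:28774561-28774707 (plus strand): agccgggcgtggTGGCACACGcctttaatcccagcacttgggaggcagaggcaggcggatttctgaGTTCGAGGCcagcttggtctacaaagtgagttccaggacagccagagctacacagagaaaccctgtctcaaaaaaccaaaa
B1_Mus2_dup48981, chr11:103760892-103761038 (minus strand): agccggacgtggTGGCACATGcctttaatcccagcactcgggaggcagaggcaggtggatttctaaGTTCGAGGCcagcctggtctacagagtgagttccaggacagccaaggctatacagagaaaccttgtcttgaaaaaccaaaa
B1_Mus1_dup37355, chr7:105586220-105586363 (plus strand): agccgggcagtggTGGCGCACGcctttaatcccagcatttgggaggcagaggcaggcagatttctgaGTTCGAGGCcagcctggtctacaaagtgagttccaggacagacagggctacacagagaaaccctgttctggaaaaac
B1_Mur1_dup29249, chr12:117286874-117287009 (plus strand): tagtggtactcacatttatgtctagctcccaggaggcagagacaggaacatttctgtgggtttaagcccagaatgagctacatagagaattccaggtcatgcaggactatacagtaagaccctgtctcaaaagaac
The 3 copies of the B1_Mus1 and B1_Mus2 subfamilies shared both boxes, with the A box starting at base 13 or 14 and the B box at base 67 or 68 of the element, and were 85.9 to 91.2% identical to each other in pairwise alignments. The B1_Mur1 copy held neither box and was 62.4 to 65.3% identical to these 3. The copy that was lower in KO cortex, in an intron of Sun1 (a protein of the nuclear envelope), also held neither box.
B1_Mus1_dup28360, chr5:139232760-139232897 (minus strand): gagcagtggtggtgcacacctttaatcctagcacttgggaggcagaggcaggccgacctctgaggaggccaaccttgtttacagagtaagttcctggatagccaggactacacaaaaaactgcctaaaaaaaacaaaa
In NPCs, 3 of the 4 called copies lay between genes, where 6.29% of the copies tested lay. These 3 are shown because none held the pair of boxes that 12 of the 23 cortex copies held. PB1D9_dup4716 held an A box alone.
B1_Mur1_dup15020, chr7:34091142-34091266 (minus strand): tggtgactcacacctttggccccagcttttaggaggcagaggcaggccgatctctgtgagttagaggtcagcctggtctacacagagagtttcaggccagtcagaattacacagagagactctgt
PB1D9_dup4716, chr3:96507288-96507394 (plus strand): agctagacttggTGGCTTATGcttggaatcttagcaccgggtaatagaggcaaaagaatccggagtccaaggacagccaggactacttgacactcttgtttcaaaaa
B1_Mur4_dup37836, chr17:35939959-35940120 (plus strand): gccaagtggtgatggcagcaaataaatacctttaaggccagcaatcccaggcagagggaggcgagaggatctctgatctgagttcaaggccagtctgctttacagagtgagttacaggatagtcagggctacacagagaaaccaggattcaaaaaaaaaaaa

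Across the 534441 B1 copies placed on chromosomes 1 to 19, the A box letters were found in 17.2% and the B box letters in 13.1% on the strand of the element. On either strand they were found in 18.2% and 13.2% of copies, against 5.63% and 0.935% of windows of the same length 1 kb away. The boxes do not overlap each other. Both boxes together were found in 5.60% of copies, and this share followed the subfamily: 20.2% in B1_Mm, 16.4% in B1_Mus2 and 11.8% in B1_Mus1, the subfamilies named for the mouse, and at most 1.24% in the 13 others (B1_Mur4). CpG dinucleotides, the sites of DNA methylation, were also most frequent in those subfamilies, with a mean of 3.13 per copy in B1_Mm, 2.69 in B1_Mus2 and 1.95 in B1_Mus1, compared with 1.36 over all copies. The B box letters hold a CpG, so this is partly the same measure. A match to these letters is a description of the sequence and no sign of transcription from it.

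**Figure D1:**
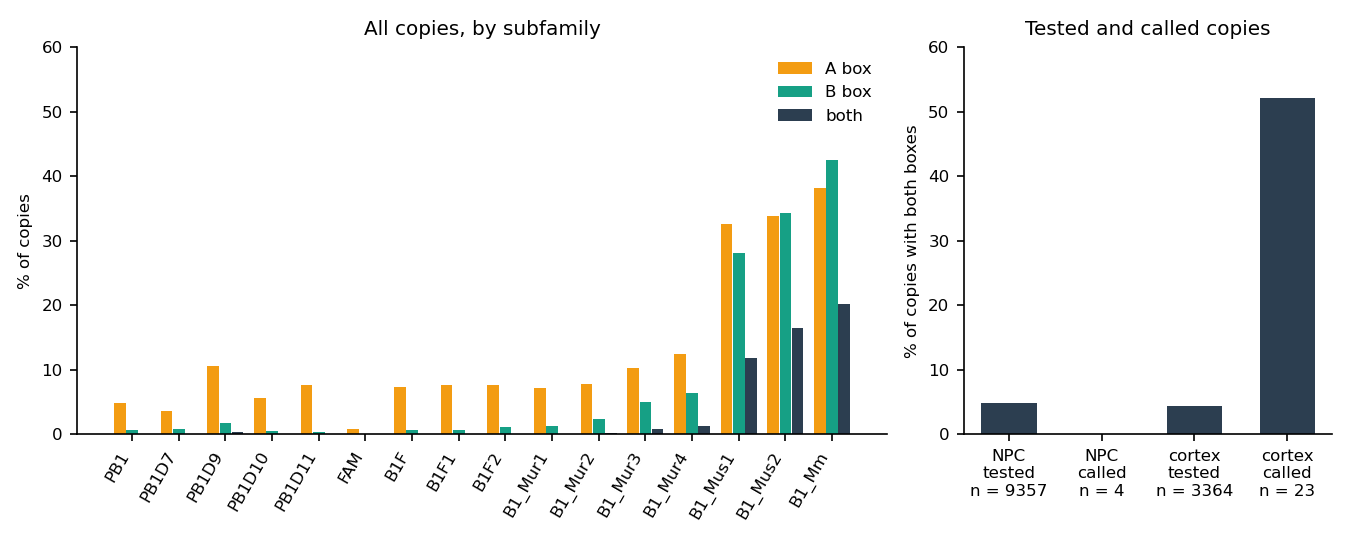
The left panel plots the percentage of copies on chromosomes 1 to 19 with an A box, a B box or both on their own strand, for each of the 16 subfamilies. The right panel plots the percentage with both boxes among copies tested and copies called in NPC cultures and in Emx1-Cre cortex. In the cortex, 52.2% of the 23 copies called had both, compared with 4.43% of the 3364 tested. In NPCs, 0 of the 4 called had both, compared with 4.91% of the 9357 tested.

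Counts per B1 copy were low. The largest subfamily was B1_Mus1 with 86369 copies, followed by B1_Mus2 with 66558 and PB1D10 with 61267, and the smallest was FAM, a monomer, with 110. Between 37.1% (B1_Mm) and 46.9% (PB1D9) of the copies of a subfamily had a read in any library. Counts per copy in the multi-mapping table, summed over all libraries, ranged from 8.53 in B1_Mm to 15.3 in PB1D9, with 19.8 for FAM. The libraries held 8790346 to 25345083 uniquely mapped gene counts, 165805 to 751327 unique counts on B1 copies and 45988 to 317684 multi-mapping counts on B1 subfamilies, a ratio of multi-mapping to unique counts of 0.247 to 0.585. Neural progenitor markers summed to 1586 to 3610 CPM (unique counts scaled to 1000000 gene counts of the library) in NPCs and at most 12.3 CPM in nuclei, while neuronal markers summed to 1583 to 2823 CPM in nuclei and 1127 to 1751 CPM in NPCs, where Map2 alone stood at 1091 to 1690 CPM, and oligodendrocyte markers to 115 to 396 CPM in nuclei.

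Trim28 itself was lower in KO NPCs, at 37.1 to 76.6 CPM compared with 158 and 206 CPM in controls (log2 fold change -1.82, SE 0.25, edgeR adjusted p = 0.0310), and in KO cortex, at 6.28 to 8.87 compared with 20.3 to 22.7 CPM (-1.39, SE 0.15, edgeR adjusted p = 0.000378). In Cas9-GFP nuclei it was 93.4 to 105 CPM compared with 139 (log2 fold change -0.51, adjusted p = 0.415) and in Stop-Cas9-GFP nuclei 88.8 to 129 compared with 106 (-0.00, adjusted p = 1.00). In the Trim28-flox experiment the level went against the labels. The 4 libraries labelled KO had 127 to 145 CPM and the 4 labelled control 25.1 to 31.3 CPM (log2 fold change 2.26, SE 0.10, edgeR adjusted p = 2.74e-06), so directions from this experiment are given only for the libraries as labelled.

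In multi-mapping counts, B1 elements took a smaller share of TE counts in every KO library than in every control in NPCs and in cortex. The same held, against a single control, in Stop-Cas9-GFP nuclei. In Cas9-GFP and flox nuclei the libraries overlapped. In NPCs, 18.6 to 21.9% (median 21.6%) of TE counts fell on B1 subfamilies in the 6 KO libraries, and 22.7 and 22.9% in the controls. All KO libraries lay below both controls. The difference of -1.69 percentage points (mean 21.1% ± 1.29, SD, n = 6, compared with 22.8% ± 0.168, n = 2) had p = 0.0714 in an exact two-sided permutation test, the smallest that 6 against 2 libraries can give, and it was -1.45 and -1.92 points within the number series A and B of the cultures. TE counts were 3.21 to 4.21% of all gene and TE counts in KO NPCs and 3.09 and 3.05% in controls, so the denominator moved too. Over genes plus TEs the NPC difference was 0.0982 points in the other direction (p = 0.143, exact permutation test). In the cortex, the KO animals had 14.7, 14.6 and 14.8% and the controls 15.6, 15.6 and 15.7%, which did not overlap (-0.953 points, exact permutation p = 0.1, the smallest possible for 3 against 3). Over genes plus TEs the cortex difference was -0.00991 points. In uniquely mapped reads the NPC groups overlapped, at 23.7 to 25.5% in KO and 25.2 and 25.6% in controls. The cortex groups did not, at 21.2 to 21.4% in KO and 21.7 to 22.1% in controls.

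With 1 control per Cas9 line, the permutation tests in those nuclei could not reach a p of 0.05. The B1 share was 19.7 to 20.5% in Cas9-GFP KO nuclei and 20.4% in their control (difference -0.353 points, exact permutation p = 0.8, n = 4 and 1). Over genes plus TEs the same difference was 0.324 points. In Stop-Cas9-GFP nuclei, the 4 KO libraries had at most 20.4% and the control 20.6% (-1.17 points, exact permutation p = 0.4, the smallest possible for 4 against 1). The flox libraries labelled KO had 16.1 to 19.3% and those labelled control 17.4 to 18.6% (0.365 points, exact permutation p = 0.686), and without the 2 libraries of highest number, 1 of each label, the difference was 0.922 points (p = 0.1, exact permutation test, the smallest possible), whereas between those 2 libraries it was -1.303 points. It was 1.09 points without the library of highest number, labelled KO (p = 0.0571, exact permutation test), and 0.0344 to 0.575 points without any other 1 of the libraries, so single libraries moved it.

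**Figure D2:**
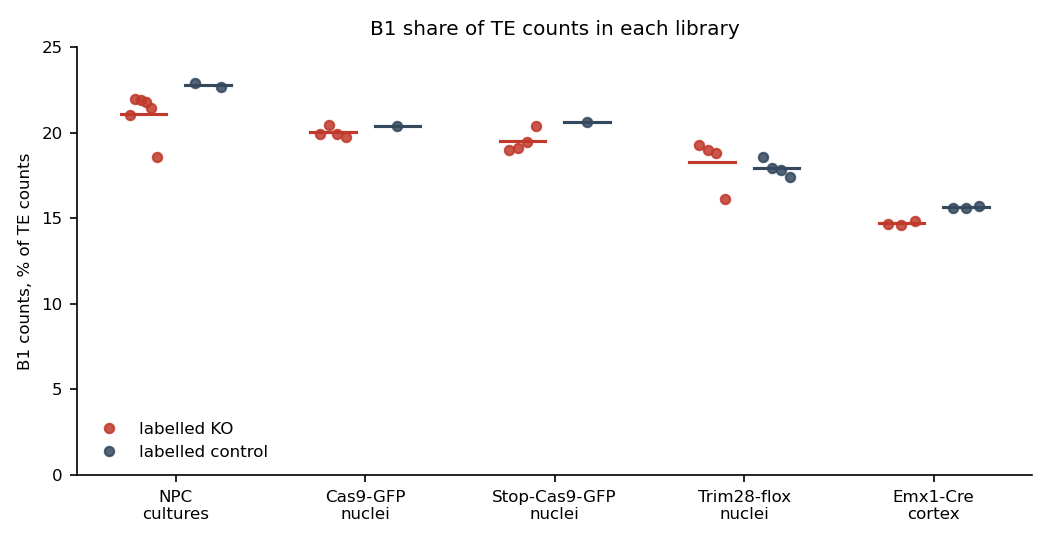
The percentage of multi-mapping TE counts that fell on B1 subfamilies is plotted for each of the 32 libraries, with libraries labelled KO on the left and those labelled control on the right of each experiment and a line at the group mean. The KO libraries of NPCs and cortex lie below all of their controls, those of nuclei do not all do so, and cortex lies lowest, between 14.6 and 15.7%.

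No B1 subfamily was called up- or downregulated in any of the 5 experiments, where a call needed a log2 fold change of more than 0.5 in either direction with an adjusted p below 0.05. Of all TE subfamilies tested, 1.0% were called in NPCs, 0.0% in Cas9-GFP nuclei, 0.0% in Stop-Cas9-GFP nuclei, 0.0% in flox nuclei and 3.92% in cortex. At these shares 0 of 16 is near the background in all 5 experiments. DESeq2 called 0 of 16 as well in each. In NPCs the 16 log2 fold changes ran from -0.21 (FAM) to -0.01 with a median of -0.09 and a median SE of 0.07, whereas the median of all TE subfamilies was -0.02. The lowest p-values belonged to B1F2 (log2 fold change -0.15, unadjusted p = 0.0393, edgeR adjusted p = 0.515) and B1_Mur1 (-0.13, unadjusted p = 0.0478, adjusted p = 0.575). These 2 were the only ones under 0.05 before adjustment in the main fit. With the number series as a replicate block 5 were, and 0 were called. Scaled to the gene counts in place of the TE counts, all 16 subfamilies were above 0 in NPCs with a median of 0.21, and so was the median of all TE subfamilies at 0.30.

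In the cortex, B1_Mus2 had the lowest p-value of the 16. It took 1.70 to 1.83% of TE counts in KO animals and 1.69 to 1.77% in controls, which overlapped, and its log2 fold change was 0.14 (SE 0.05, unadjusted p = 0.0165, edgeR adjusted p = 0.203), the only one of 16 under 0.05 before adjustment. B1_Mm stood at 0.10 and B1_Mus1 at 0.05, and the range over the 16 was -0.08 to 0.14 with a median of 0.01. Shares and scaled differences parted here: B1F1, for example, took 0.375 to 0.397% of TE counts in KO and 0.420 to 0.436% in controls, which did not overlap, but its scaled log2 fold change was -0.03 (SE 0.05, edgeR adjusted p = 0.906). The medians were -0.08 in Cas9-GFP nuclei (range -0.70 to 0.06), -0.08 in Stop-Cas9-GFP nuclei (-0.21 to 0.63) and 0.01 in flox nuclei as labelled (-0.18 to 0.12). None of the 16 had an unadjusted p under 0.05 in these 3 experiments. In both Cas9 lines the most distant value was FAM, which has the fewest counts and SEs of 0.35 and 0.49.

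**Figure D3:**
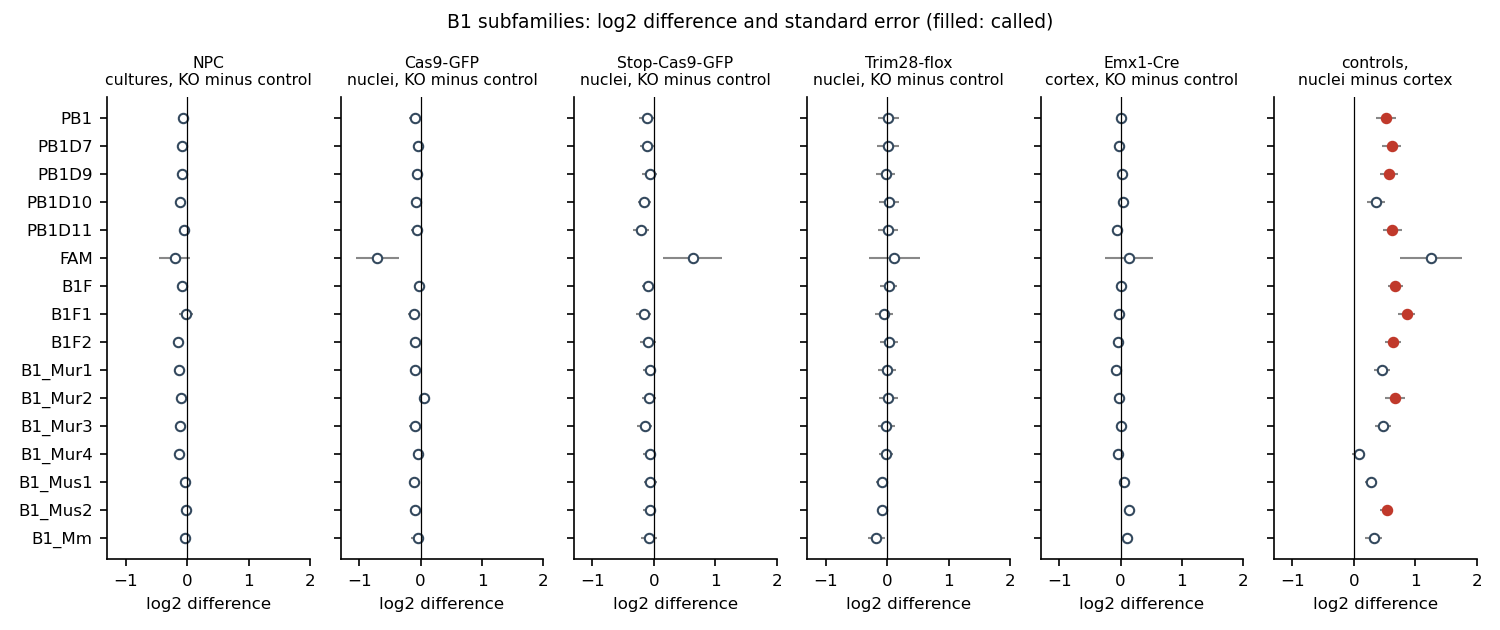
Each panel plots the log2 difference of the 16 B1 subfamilies with its standard error (bars), KO minus control in the 5 experiments and nuclei minus cortex among controls in the last panel. Filled points passed the thresholds. No point is filled in the 5 KO experiments, and 9 are filled in the comparison of nuclei with cortex.

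Among genes that make, bind or silence SINE RNA, the targeted gene alone was called. Of 25 genes of the RNA polymerase III machinery all were tested in each experiment, and 0 were called, with median log2 fold changes between -0.05 and 0.04. Of 12 genes whose proteins bind, edit or cut SINE RNA, such as Srp9 and Srp14 of the signal recognition particle and the RNA editor Adar, 10 or 11 were tested and 0 were called. Of 17 chromatin factors, 14 to 17 were tested and Trim28 alone was called, in NPCs, in cortex and, in the direction opposite to the labels, in flox nuclei. Over all genes, 0.194% were called in NPCs, 0.0% in Cas9-GFP nuclei, 0.0% in Stop-Cas9-GFP nuclei, 0.0409% in flox nuclei and 1.33% in cortex. DESeq2 gave the same counts of called list members.

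In NPCs, 4 of 9357 B1 copies tested were upregulated and 0 downregulated, a share of 0.0427% compared with 0.55% of all TE copies tested. The copy of lowest adjusted p was B1_Mur4_dup37836, which lies 4009 bases from the nearest gene. It had 55, 41, 20, 19, 23 and 20 unique counts in the KO libraries (exon 3, exon 4 and exon 13 in turn, each with number series A before B) and 1 and 1 in the controls. The ratio of pooled CPM was 34.7 (95% exact counting interval 9.45 to 288, edgeR adjusted p = 0.00272). Counting intervals and floors cover counting error only.

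The 3 other copies had no count in either control, and their folds are lower bounds against a floor of 3 counts over the control group. B1_Mur1_dup15020 had 32, 27, 4, 13, 9 and 21 counts in the KO libraries and was at least 13.8-fold higher (edgeR adjusted p = 0.0370). PB1D9_dup4716 had 11, 20, 13, 25, 17 and 3 counts and was at least 11.6-fold higher (adjusted p = 0.0140). B1F1_dup2653, at chr2:180637777-180637930 in an exon of Tcfl5, a helix-loop-helix transcription factor, had 7, 17, 7, 8, 14 and 3 counts and was at least 7.27-fold higher (adjusted p = 0.0475). Tcfl5 itself was called up in the same cells (log2 fold change 4.07, edgeR adjusted p = 0.00361).

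All 4 lay within 10 kb of an LTR copy that was upregulated in the same fit, at 3142, 992, 576 and 4263 bases in the order given above, and those LTR copies were RMER16-int, RLTR11D, ORR1B2 and MERVL_2A-int. LTR elements are remnants of endogenous retroviruses, and their reads can run into neighbouring sequence. Among all 9357 B1 copies tested, 7 (0.0748%) lay that close to 1 of the 96 upregulated LTR copies. The 4 calls rested on both controls: with either control left out 0 were called, without the series B culture of exon 3 or that of exon 4 2, and without the series A culture of exon 3 10. With the number series as a replicate block, 17 copies were called, 15 up and 2 down, among them all 4. The lowest p-value among copies that were lower in KO NPCs, which did not pass, was that of B1_Mur2_dup8689 in an exon of Pdgfra, a growth factor receptor of glial progenitors. It had 12, 8, 1, 1, 12 and 2 counts in KO and 31 and 36 in controls (log2 fold change -2.25, SE 0.58, edgeR adjusted p = 0.165).

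The upregulated NPC copies had few counts in the cortex. B1_Mur1_dup15020 had 12, 4 and 6 counts in the 3 KO cortices and 0 in each control, and B1F1_dup2653 had 2, 1 and 1 compared with 0 in each control. PB1D9_dup4716 had 0, 2 and 1 counts and none in the controls, and these 3 were too low to be tested there. B1_Mur4_dup37836, which was tested, had 3, 13 and 8 counts in KO and 7, 6 and 12 in controls (log2 fold change 0.40, SE 0.49, edgeR adjusted p = 0.951).

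In Emx1-Cre/Trim28-KO cortex, 22 of 3364 B1 copies tested were upregulated and 1 was downregulated, together 0.684% compared with 2.92% of all TE copies. DESeq2 called 17 of the same 23. The largest change was that of B1_Mus2_dup64647, in an intron of Mapk13, a p38 kinase, on the strand of the gene. It had 94, 111 and 39 counts in KO animals 60, 73 and 76 and none in the 3 controls, and was at least 99.2-fold higher against the floor (edgeR adjusted p = 8.20e-13). Mapk13 was too low to be tested, at a mean of 0.155 CPM in KO and 0.171 CPM in controls.

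A further 4 copies had counts in every KO animal and in no control, of which 3 are described here. B1_Mus2_dup48981, 11071 bases from Wnt9b, a Wnt ligand, had 19, 24 and 13 counts (at least 22.8-fold, edgeR adjusted p = 9.39e-08). B1_Mus1_dup37355, 4567 bases from Apbb1, which binds the amyloid precursor protein, had 20, 11 and 16 counts (at least 19.1-fold, adjusted p = 1.21e-06). The box-less B1_Mur1_dup29249, in an intron of Gm5441 on the opposite strand, had 17, 12 and 17 counts (at least 18.7-fold, adjusted p = 1.21e-06), and Gm5441 was called up as well (log2 fold change 1.10, edgeR adjusted p = 0.00303).

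The other 17 upregulated copies had counts in controls too, and those named here were picked after their values were seen. The 3 next in size were B1_Mus2_dup16624 between genes, with 19, 27 and 25 counts compared with 0, 1 and 0 (ratio 86.6, 95% exact counting interval 15.0 to 3468), B1_Mur3_dup17822 with 24, 39 and 22 compared with 1, 4 and 0 (20.7, 8.54 to 65.5), and B1_Mus2_dup33709 in an intron of the chromatin remodeller gene Smarca4 with 11, 28 and 14 compared with 2, 2 and 2 (10.8, 4.63 to 30.7). All 3 were higher in every KO animal than in every control. Smarca4 was not called (log2 fold change -0.00, adjusted p = 1.00), and among the 12 of the 23 called copies whose host gene was tested, which include 3 in 1700016P03Rik and the downregulated one in Sun1, the host was called for 3, Gm5441, Gm40123 (2.15) and Tnfrsf8 (1.53). In CPM, the KO animals lay above all controls for 18 of the 22. The same libraries chose the 22 for being higher in KO, so this count describes the calls and adds no evidence. The share over all copies tested was not computed. The 4 that overlapped were B1_Mus2_dup52400 and 3 neighbours in 1700016P03Rik, which lie within introns of that gene and are not independent. Of these, PB1_dup7941 had 101, 79 and 28 counts in KO and 45, 45 and 41 in controls (log2 fold change 1.08, edgeR adjusted p = 0.00695). The downregulated copy, B1_Mus1_dup28360 in Sun1, had 8, 5 and 4 counts in KO and 27, 13 and 26 in controls (log2 fold change -1.47, SE 0.40, adjusted p = 0.0322), while Sun1 was not called (-0.06, adjusted p = 0.979).

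Of the 22 upregulated copies, 10 lay between genes, 11 in introns and 1 in an exon. Of the 3364 tested, 13% lay between genes. A further 7.52 and 5.26% lay in introns and 39.7 and 34.5% in exons (same and opposite strand). Within 10 kb of an LTR copy called up in the cortex lay 4 of the 22, compared with 7 of 3364 copies tested (0.208%). Within 10 kb of any other TE copy called up lay 7 of the 22, so most had no such neighbour. The nearest upregulated LTR copy to B1_Mus2_dup64647 was 5227673 bases away. The 4 near LTR copies were B1_Mur3_dup17822 (3 bases from RMER17C2), B1_Mur3_dup17758 (99 bases from another RMER17C2), B1_Mm_dup10261 (228 bases from RMER15) and B1_Mur1_dup6496 (2701 bases from RLTR10C).

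Most called copies of the cortex belonged to the subfamilies named for the mouse. B1_Mm, B1_Mus1 and B1_Mus2 gave 15 of the 23, or 65.2%, and 28.4% of the copies tested. Both boxes were found in 12 of 23 (52.2%) and in 4.43% of those tested, and all 12 were upregulated members of those 3 subfamilies. Within the 3 subfamilies, 12 of 15 called copies and 141 of 954 tested copies (14.8%) held both boxes. Called copies of the 3 subfamilies had a mean of 4.93 CpG dinucleotides compared with 2.59 in those tested, and the 12 with both boxes had 4 to 8. The B box letters themselves hold a CpG, and 86.7% of these called copies and 28.8% of those tested had a B box. CpG number and boxes are therefore not separate traits. Of the 12, 1 had an LTR copy called up at under 10 kb and 2 had any other TE copy called up at that distance. These shares are descriptions of copies that the cortex libraries chose.

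**Figure D4:**
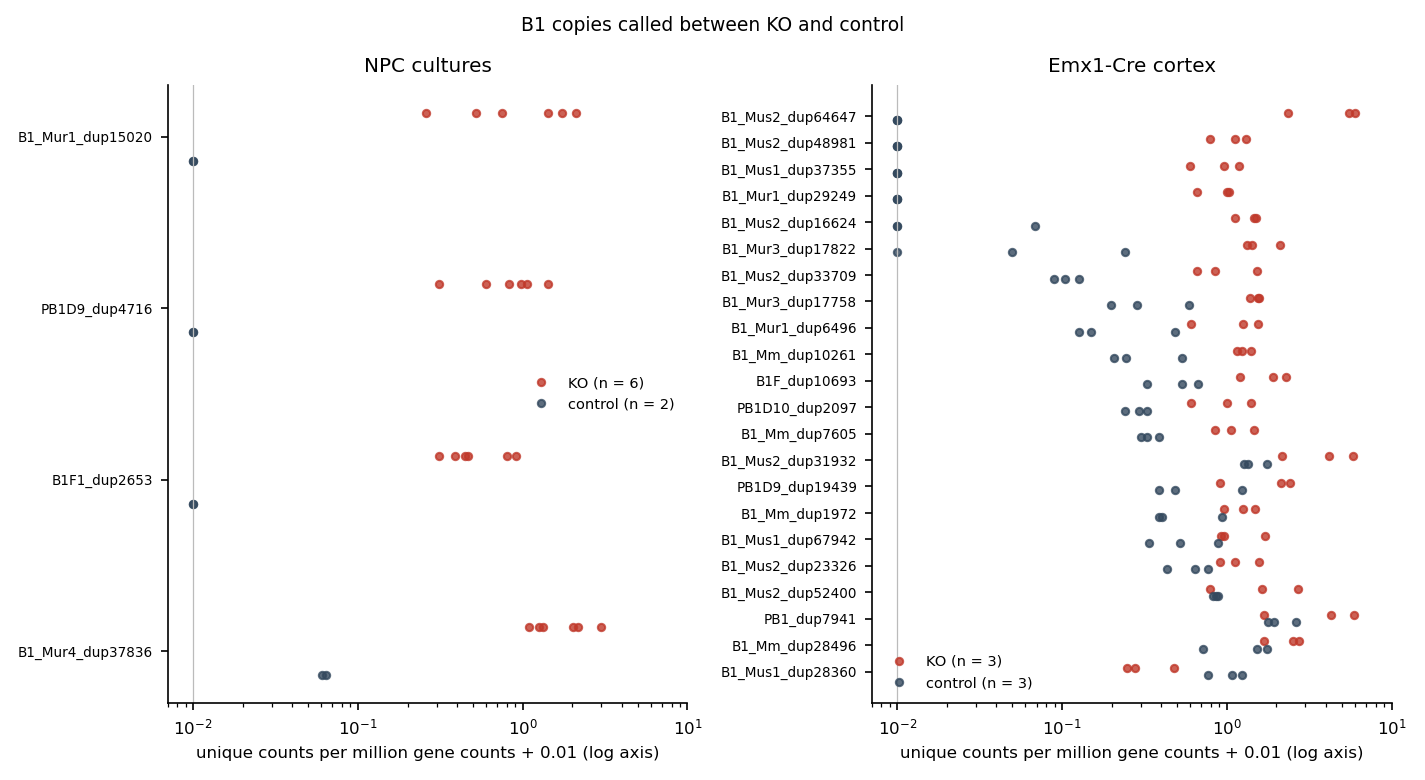
Unique CPM plus 0.01, on a log axis, are plotted for each library, with the 4 called B1 copies of NPC cultures on the left and 22 of the 23 of Emx1-Cre cortex on the right, sorted by log2 fold change. The grey line marks libraries with no count, where both or all controls of 3 NPC copies and 4 of the cortex copies lie. The last cortex copy, B1_Mus1_dup28360, is the only one that was lower in KO.

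Most copies called in the cortex had few counts elsewhere. In NPCs, 5 of the 23 were expressed enough to be tested and 4 had no count in any library. B1_Mus2_dup48981 was the 1 copy with counts in all 6 KO cultures (5, 19, 2, 19, 7 and 18) and in neither control, but it did not pass there (edgeR unadjusted p = 0.00122, adjusted p = 0.141). B1_Mus2_dup64647 had 1 count in each of 2 KO cultures, and B1_Mus1_dup37355, B1_Mus2_dup16624 and B1_Mus2_dup52400 had no count outside the cortex. No B1 copy was called in 2 or more experiments.

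Summed levels of cell type markers in the cortex differed between KO and control beside these calls. In bulk tissue, fewer cells of a type and less RNA per cell cannot be told apart. Summed markers of oligodendrocytes were 1665 to 2176 CPM in KO and 2701 to 2947 in controls, of neurons 5720 to 9239 and 9291 to 9491, of endothelial cells 74.7 to 108 and 117 to 125, and of meningeal fibroblasts 5.61 to 11.7 and 14.2 or more, none of which overlapped. Sums for astrocytes (675 to 978 and 947 to 1125 CPM) and microglia (165 to 204 and 184 to 226 CPM) did. No median of these sums was higher in KO. Medians were higher in KO for neural progenitor markers (81.7 compared with 77.5 CPM) and nuclear RNAs (1032 compared with 986 CPM), whose ranges overlapped. Of the neuronal markers, Snap25 alone did not overlap (2713 to 4639 CPM in KO and 4785 to 5074 in controls). The part of these marker levels in the B1 calls was not tested.

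In Cas9-GFP nuclei, 28 of 23216 B1 copies tested were called higher and 1 lower in KO, together 0.125% compared with 0.167% of all TE copies, but the calls hung on the single control, whose spread was assumed to equal that of the KO libraries. In 22 of the 28 that control had no count. B1_Mur2_dup761, in an intron of the neuronal guanine nucleotide exchange factor gene Ngef, had 33, 50, 71 and 52 counts with gRNAs g13, g3, all together and g4 and 0 in the control (at least 15.3-fold, edgeR adjusted p = 0.000615). PB1D10_dup9019, in the 3′ untranslated region of the adaptor gene Pag1, had 58, 65, 35 and 35 counts and 0 in the control (at least 14.4-fold, adjusted p = 0.00103). The next 3 in size, PB1D10_dup40821, B1_Mur2_dup23740 and B1_Mus2_dup33759, were at least 11.8- to 12.1-fold higher. The copy called lower, B1_Mur4_dup6347 in an intron of Vps45, had 0 counts in all 4 KO libraries and 31 in the control (at least 46.3-fold lower, adjusted p = 0.0441).

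The second Cas9 line did not show the same copies as changed. In Stop-Cas9-GFP nuclei, all 28 copies called higher had counts in the control. Of the 27 that were tested there, 10 were above 0, 1 had an unadjusted p under 0.05 and the median log2 fold change was -0.13. With both lines in 1 edgeR fit and the line as a term, an alternative added after the data were seen, 0 B1 copies were called and 660 had an unadjusted p under 0.05. DESeq2 on the Cas9-GFP line alone called 0, with 2563 under 0.05. By edgeR 2023 were under 0.05, and without the library of all gRNAs together 186 copies were called, without g13 14 and without g3 15. Of the 28, 19 lay in introns, 7 in exons and 2 between genes. Of the copies tested, 38.5 and 32.3% lay in introns and 11.8 and 10.8% in exons (same and opposite strand), and 6.55% between genes. For the 27 of all 29 called copies that lay in a tested gene the host was called in 0. Of the 28, none had an upregulated LTR copy at under 10 kb, as 0.358% of those tested did. Both boxes were held by 1 of 29 called copies (3.45%), near the 4.14% of those tested. In 1 called copy, B1F_dup31276, which was picked after its values were seen, a single library held the signal, with 250, 0, 0 and 0 counts in KO and 1 in the control.

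In Stop-Cas9-GFP nuclei, 0 of 24348 B1 copies tested were called by edgeR (351 had an unadjusted p under 0.05) and 0 by DESeq2 (617), compared with 0.0123% of all TE copies. The lowest p was that of B1_Mur1_dup18691, in an exon of the non-coding gene Gm26592 on the opposite strand, with 65, 36, 58 and 45 counts in KO and 1 in the control (ratio 42.1, 95% exact counting interval 7.47 to 1671, edgeR adjusted p = 0.0735). PB1D11_dup9988, in an intron of Abhd14a, had 134, 13, 149 and 163 counts and 346 in the control (log2 fold change -1.84, SE 0.43, adjusted p = 0.111), and 1 KO library was far below the others.

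In flox nuclei, 0 of 11708 B1 copies tested were called by edgeR (118 had an unadjusted p under 0.05) and 2 by DESeq2, compared with 0.00641% of all TE copies. The lowest p belonged to a B1 copy inside Trim28 itself. B1_Mus2_dup26123, at chr7:13028202-13028307 in an exon of Trim28 and opposite to it in strand, had 38, 26, 34 and 13 counts in the libraries labelled KO and 0, 0, 0 and 1 in those labelled control (ratio 117, 95% exact counting interval 20.6 to 4659, edgeR adjusted p = 0.0734). It moved as the Trim28 level did, against the labels. PB1_dup7286, in a 5′ untranslated exon of the testis gene Theg, had 19, 17, 11 and 15 counts in libraries labelled KO and 81, 71, 104 and 47 in those labelled control (log2 fold change -2.20, SE 0.35, adjusted p = 0.177), and Theg itself was called in that direction (log2 fold change -3.00, edgeR adjusted p = 2.27e-05).

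B1 RNA was a larger share of TE counts in nuclei than in cortex tissue, among control libraries alone. It was 17.4 to 20.6% (median 18.3%) in the 6 nuclear controls and 15.6, 15.6 and 15.7% in the 3 cortex controls, which did not overlap (18.8% ± 1.38, SD, n = 6, compared with 15.6% ± 0.0735, n = 3; difference 3.14 points, exact permutation p = 0.0238, the smallest possible). The 12 KO-labelled nuclear libraries and 3 KO cortices differed by 4.57 points (exact permutation p = 0.00440). In uniquely mapped reads over all copies the direction turned, with 20.4% in nuclei and 21.9% in cortex (-1.51 points, exact permutation p = 0.0238), and without TE copies in exons it turned back, with 20.3% and 17.4% (2.94 points, p = 0.0238, exact permutation test; added after the data were seen). RNA fraction, cell type, brain region and experiment cannot be told apart here, and 4 of the 6 nuclear controls are the flox libraries labelled control, in which Trim28 was low.

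Of the 16 subfamilies, 9 were called higher in nuclei and 0 lower, on a background of 38.9% of all TE subfamilies called. The largest log2 difference among the called was that of B1F1 at 0.86 (SE 0.14, edgeR adjusted p = 0.000728), with 0.675% ± 0.0916 of TE counts in nuclei compared with 0.426% ± 0.00841 in cortex (SD, n = 6 and 3), without overlap. B1F (0.68), B1_Mur2 (0.67), B1F2 (0.64), PB1D11 (0.63), PB1D7 (0.62), PB1D9 (0.57), B1_Mus2 (0.54) and PB1 (0.53) followed. B1_Mur4 stood at 0.08 (adjusted p = 0.569). B1_Mus1 (0.28), B1_Mm (0.32), PB1D10 (0.36), B1_Mur1 (0.46) and B1_Mur3 (0.48) did not reach the fold threshold, and FAM (1.26, adjusted p = 0.0682) missed the p threshold. The median of the 16 was 0.56 compared with 0.13 for all TE subfamilies, and scaled to gene counts all 16 were called, with medians of 1.88 and 1.47. The count was 3 without cortex control 64, and 4 without 65 or without 77.

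The place of the B1 reads in genes separated nuclei from cortex in every class. In nuclear controls 37.3% ± 4.84 of unique B1 counts fell on copies in exons, and in cortex controls 70.7% ± 1.11 (SD, n = 6 and 3; difference -33.4 points). Copies in introns on the strand of the gene held 31.9% ± 3.09 compared with 10.3% ± 0.730 (21.5 points), and those on the opposite strand 24.3% ± 3.87 compared with 8.90% ± 0.663 (15.4 points). Copies between genes held 6.61% ± 1.24 compared with 10.1% ± 0.280 (-3.50 points). The groups did not overlap in any class, and each exact permutation p was 0.0238, the smallest possible. NPC controls lay between, with 52.8 and 53.3% on exonic copies. By number, 4.07% of B1 copies lie in exons, 25.9% in introns on the same strand, 29.3% in introns on the opposite strand and 40.8% between genes.

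Markers of the RNA fraction moved with this split. Genes of the mitochondrial genome took 0.802 to 4.39% of gene counts in nuclear controls and 12.5 to 15.3% in cortex controls. The nuclear RNA Meg3 stood at 4084 to 5363 CPM in nuclei and 40.8 to 50.2 CPM in cortex, and Snhg11 at 13080 to 17366 and 495 to 673 CPM. Their part in the result was not tested. Copies opposite in strand to an exon held 30.2, 30.1 and 29.5% of B1 counts in the 3 cortex controls, compared with 41.4, 40.9 and 40.0% on the strand of the exon, so the orientation of a copy cannot tell which strand was transcribed.

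**Figure D5:**
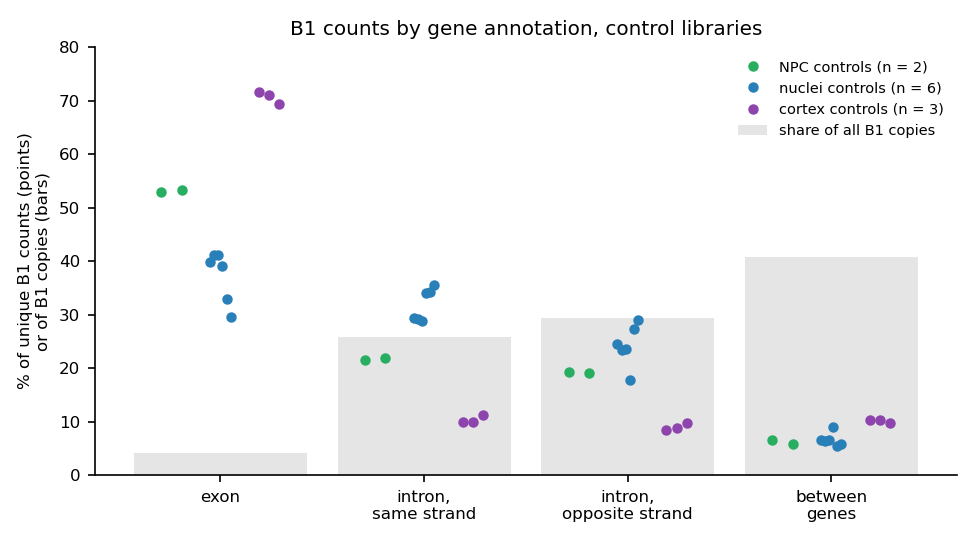
Points give the percentage of unique B1 counts on copies in exons, in introns on the same or the opposite strand as the gene, and between genes, for each control library of NPCs (2), nuclei (6) and cortex (3), and grey bars the percentage of all B1 copies in each class. Exonic copies are 4.07% of copies but hold 69.4 to 71.5% of counts in cortex, and nuclei lie higher than cortex in both intron classes.

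The reads were most concentrated in the cortex. The 100 copies with the most counts held 11.7% of B1 counts in NPC controls, 8.48% in nuclear controls and 20.4% in cortex controls, and 50% of the counts lay in 2506, 4077 and 768 copies. In cortex the highest was B1_Mm_dup27071 in the 3′ untranslated region of Kif5a, a neuronal kinesin, with 278, 246 and 240 CPM and 1.84% of all B1 counts. It stood at 22.5 CPM in nuclei and 0.423 CPM in NPCs. The next were in Slc24a2, a cation exchanger (85.1 CPM), Ghitm (77.8), Pgm2l1 (65.5) and 2900097C17Rik (55.9), all on the strand of the host exon.

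In nuclei the highest copy was B1_Mur4_dup9437 in the 3′ untranslated region of Sh2d5, with 131 to 178 CPM (mean 155) compared with 8.71 CPM in cortex. The second, B1_Mus2_dup52925 in an intron of the formin gene Inf2, had 40.8 to 120 CPM in nuclei and 0.362 CPM in cortex. Copies in Ttyh1 (73.5 CPM, range 9.67 to 151), Phf24 (67.6) and the GABA-B receptor gene Gabbr1 (57.5) followed. In NPCs the highest was PB1D9_dup28687 in the 3′ untranslated region of Scd2, a fatty acid desaturase, with 131 and 163 CPM. It was followed by a copy in Hip1 (69.5 CPM), one in the nuclear RNA Malat1 (56.7 CPM), one in the neurocan gene Ncan (50.1 CPM) and a second in Hip1 (40.5 CPM). All 15 of these copies lay in a GENCODE gene, and their level per 100 bases of the copy ranged from 28.7 CPM in Hip1 to 179 CPM in Kif5a.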

How the data were processed

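RNA was poly-A selected (TruSeq Stranded mRNA, paired-end), in 32 bulk libraries of 38 samples. Per the labels and methods, the authors mapped reads with STAR 2.6.0 to GRCm38. They deposited counts of uniquely mapped reads per gene and per TE copy, made with featureCounts (Subread 1.6.3), and estimated counts per TE subfamily with multi-mapping reads from TEtranscripts, which were rounded to whole numbers here. The CUT&RUN and single-nucleus samples were not used, nor were 6 columns of the copy table that match no sample.

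Members and gene lists were chosen with earlier results of these data known. B1 means the family Alu. Copies on chrX and chrY were left out of all member counts, but every fit ran on the whole table and adjusted p-values over it. edgeR 4.0.16 (quasi-likelihood test, TMM factors, filterByExpr; R 4.3.3) was the main test, with TE copies scaled to gene counts and subfamilies to TE counts. DESeq2 1.42.0 was an alternative. A feature was called at an adjusted p (Benjamini-Hochberg) under 0.05 and a log2 fold change over 0.5 in size. Shares were compared by exact two-sided permutation over libraries. CPM are unique counts scaled to 1000000 unique gene counts. The fits were tested on simulated data. With 1 lacZ control per Cas9 line, that library is assumed to vary like the KO libraries.

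Named copies were, per experiment and direction, the 5 called copies of largest fold change whose KO libraries all lay on 1 side of the controls, or, where fewer were called, the 3 of lowest p, and the 5 copies of highest mean CPM in NPC, nuclear and cortex controls. Not all of these copies are reported here. The NPC libraries carry numbers of 2 series, A (the lower) and B. The deviations of each KO library correlated with those of the control of its series (r 0.238 to 0.378 across TE subfamilies). With 2 controls, their deviations mirror each other, so these r values rest on 1 contrast of controls. The series was therefore used as a replicate block in an alternative fit only. The main fits and the permutation tests did not use it. Gene classes were taken from GENCODE, with 54409 of 55298 gene IDs matched to a symbol, and sequences from RefSeq GRCm38.p6 with bedtools 2.31.1 for distances. Floors use 3 counts over a group, and intervals are 95% exact. Alternatives changed the normalization, the filter, the denominator, the libraries left out and the pairing. Adding both Cas9 lines to 1 fit, the flox libraries without the 2 of highest number and unique reads without exonic copies were chosen after seeing the data.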

Additional observations from a re-analysis of the deposited data

Results flagged for a closer look

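In groups of 4 to 10 libraries, 144 group values were screened for 1 library far from the others, and 40 had one. Chance gives about 1 in 20. Values are percentages of TE counts unless stated.

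The exon 13 KO culture of series B, the shallowest NPC library, was the lowest of 6 KO cultures for the B1 share, at 18.6% compared with 21.0 to 21.9% in the others. It was also lowest for B1F (1.36%), B1_Mur1 (1.12%), B1_Mur2 (1.04%), B1_Mur3 (0.747%), B1_Mur4 (1.33%), PB1 (0.337%), PB1D7 (0.789%), PB1D9 (1.36%), PB1D10 (1.94%) and PB1D11 (0.509%). These subfamilies moved together in 1 library and are not separate observations.

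The flox library of highest number, labelled KO, was the lowest of its 4 for the B1 share, at 16.1% compared with 18.8 to 19.3%. It was lowest for B1F (1.32%), B1F1 (0.520%), B1F2 (0.502%), B1_Mur1 (1.02%), B1_Mur2 (0.902%), B1_Mur3 (0.705%), PB1 (0.362%), PB1D7 (0.658%), PB1D9 (0.947%), PB1D10 (1.67%) and PB1D11 (0.426%). The library next below it in number, labelled control, was the lowest of its 4 for B1F1 (0.537%), PB1D7 (0.678%) and PB1D9 (0.942%) and the highest for B1_Mm (1.38%) and B1_Mus1 (3.10%). Among the 6 nuclear controls it was also the highest for B1_Mm (1.38%) and B1_Mus2 (2.54%), the lowest for B1F2 (0.501%), and the highest in the percentage of unique B1 counts between genes, at 8.98% compared with 5.40 to 6.55%.

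In the Cas9-GFP line, KO library g13 was highest for B1F (1.71%) and g3 for B1_Mur4 (1.51%), and in the Stop-Cas9-GFP line g4 was highest for B1_Mur1 (1.57%). Among named copies, B1_Mur2_dup31373 was highest in the exon 3 KO culture of series A at 0.753 CPM, compared with 0.0626 to 0.228 CPM. B1_Mus2_dup36160 was listed at 0 CPM in Stop-Cas9-GFP library g3, compared with 3.45 to 4.02 CPM. B1_Mus2_dup26123, the copy in Trim28, was highest in that same flox library labelled control at 0.0579 CPM, compared with 0 in the others, which is 1 count. PB1D11_dup18047 was highest in the flox library of highest number, at 0.850 CPM, and a further PB1D10 copy was lowest in 1 flox library labelled KO, at 0.243 CPM.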

How the results depend on the processing

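Counts of called B1 copies depended most on the settings. In NPCs, where the main count was 4, there were 2 with the counts on TE copies as library size, 12 without a filter on low counts, 17 with the replicate block and 0 to 10 with 1 library left out. In Cas9-GFP nuclei, 29 became 0 with DESeq2, 5 without a filter, 0 with both lines together and 14 to 186 with 1 library left out. In Stop-Cas9-GFP nuclei, 0 became 1 with the counts on TE copies as library size, 1 without a filter and 0 to 1 with 1 library left out. In flox nuclei, 0 became 2 with DESeq2, 3 without a filter, 2 without the 2 libraries of highest number and 0 to 1 with 1 library left out. The cortex count of 23 stayed within 17 to 33 under all alternatives, and subfamily calls between KO and control stayed at 0.

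The B1 share turned sign over genes plus TEs in NPCs (0.0982 points) and Cas9-GFP nuclei (0.324 points), and between nuclei and cortex in unique reads (-1.51 points). Scaled to gene counts, B1F2 (0.16) and B1_Mur1 (0.18) turned positive in NPCs, and the subfamilies called between nuclei and cortex became 16. With flox controls alone they were 5, and with 1 library left out 3 to 11. With flox controls alone the share difference was 2.29 points, and the differences by gene class were -30.4 (exons), 20.0 (introns, same strand), 13.4 (introns, opposite strand) and -3.01 points (between genes), with p at the smallest value 4 against 3 can give. With 1 library left out the share differed by 2.77 to 3.42 points and the classes by -34.2 to -31.9, 20.8 to 22.1, 14.4 to 16.7 and -3.97 to -3.26 points. The causes were not tested. Of all values for main results under alternatives, 183 kept their direction and side of the threshold or their range, 26 counts moved, 20 lost the threshold and 3 turned. With 2 controls in NPCs, 1 in each Cas9 line and few reads per copy, most single copies could not be tested, and a missing call is no sign of absence.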
